A study of Mus musculus with 16 samples.

Results

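Sca-1 and ESAM are surface proteins by which blood stem cells are recognised, and both were read here as antibody tags in the same single bone marrow cells whose DNA methylation was measured. The tags are written SCA1 or Sca-1 and Esam in the deposited tables, and they were taken from the 4 bone marrow libraries that hold them: mice 3 and 4 of the main LARRY experiment, mouse 1 of the replicate LARRY experiment and the native marrow library, where Sca-1 was measured without ESAM. Cells with at least 100 unique molecular identifiers (UMIs, each 1 counted tag molecule) over all tags were kept, which left 9715 of 21441 cells in these 4 libraries. The series as a whole holds 95930 cells in 16 libraries.

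Sca-1 is a small protein of the Ly6 family that a lipid anchor holds on the membrane. It is encoded by Ly6a (chromosome 15, 74994877 to 74998031, RefSeq GRCm38.p6) and marks mouse stem cells and multipotent progenitors, and it is also found on endothelium and on some lymphocytes. ESAM, the endothelial cell adhesion molecule, is an immunoglobulin-type protein of cell junctions encoded by Esam (chromosome 9, 37528089 to 37538319). It is known from endothelium, megakaryocytes and platelets, and from stem cells of the marrow. As progenitors leave the stem cell state, Sca-1 and ESAM are lost, while CD48, a receptor of the SLAM family, appears on most progenitors.

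Methylation was measured by scTAM-seq, a droplet method run on Mission Bio's Tapestri. The DNA of each cell is digested by an enzyme that cannot cut a methylated site, and a fixed panel of targets (amplicons) is then amplified, so an amplicon gives reads where its CpG was methylated. A cell with 1 or more reads of an amplicon counted as methylated there. In the LARRY experiments, heritable DNA barcodes mark the offspring of single stem cells, whereas native marrow carries none. The labels give bone marrow and immune cells for all 4 libraries, and 1 mouse for each. The sources used here do not give strain, genotype, age, time or any sort of the cells. Each mouse is 1 library, so the p-values measure the spread between these libraries.

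After the minimum of 100 UMIs, main mouse 3 had 2675 of 5478 cells, main mouse 4 had 1342 of 3385, replicate mouse 1 had 3103 of 4687 and native marrow had 2595 of 7891. The median cell had 36300 to 68135 reads and 186 to 301 tag UMIs. Panels held 19 or 20 tags in the LARRY libraries and 4 in native marrow, where the others were c-Kit, CD150 and CD48. Any pair of libraries shared 5 to 24 cell barcodes. The progenitor markers c-Kit and CD48 stood above the level of empty droplets (defined below) in 28.5 to 37.0% and 47.6 to 54.9% of LARRY cells, and the erythroid marker Ter-119 in 3.5 to 6.1%.

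Most cells carried only a trace of Sca-1. At least 1 Sca-1 UMI was found in 76.6% of cells of main mouse 3 (95% Wilson interval 74.9 to 78.1%), 84.2% of main mouse 4 (82.2 to 86.1%), 69.9% of replicate mouse 1 (68.3 to 71.5%) and 67.7% of native marrow (65.8 to 69.4%). The median was 2, 3, 2 and 1 UMIs in the same order. The cells at the 99th percentile held 74.5 to 111 UMIs, and the 10% of cells with the most Sca-1 held 61.3 to 75.3% of all its UMIs. The tag was thus spread unevenly, with a few cells far above the rest in each library. These intervals cover counting error only.

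ESAM was spread unevenly too. It gave at least 1 UMI in 81.5% of cells of main mouse 3 (80.0 to 82.9%), 88.8% of main mouse 4 (87.0 to 90.4%) and 80.2% of replicate mouse 1 (78.8 to 81.6%), with medians of 2, 3 and 2. The 10% of cells with the most ESAM held 78.9%, 70.7% and 83.5% of its UMIs. For either tag main mouse 4 had the highest share of cells with a UMI. The levels of the 2 tags are not compared with each other, since a tag's UMIs depend on its antibody.

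**Figure D1:**
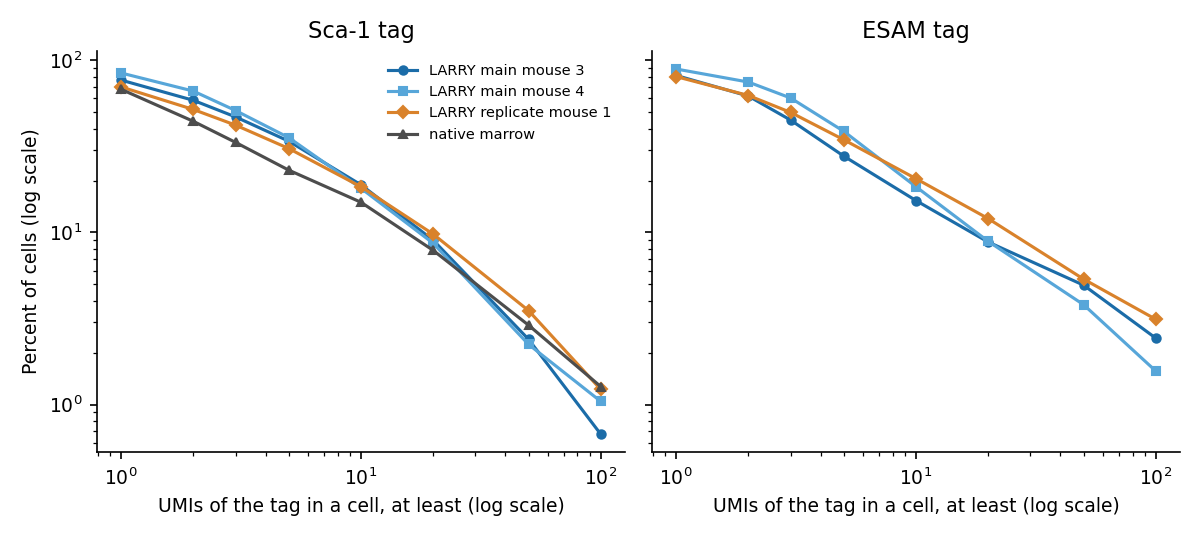
Percent of cells (vertical, log scale) with at least the given number of UMIs of Sca-1 (left) or ESAM (right; horizontal, log scale) in cells with 100 or more tag UMIs; each line is 1 library. The lines start between 67.7% and 88.8% of cells at 1 UMI and fall steeply, so that few cells hold high counts of either tag.

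Droplets without a cell gave a measure of the tag that is free in the reaction. Barcodes outside the deposited cells with fewer than 50 tag UMIs were taken for it, and Sca-1 made up 2.62% of their tag UMIs in main mouse 3, 2.62% in main mouse 4, 2.70% in replicate mouse 1 and 3.45% in native marrow. In the cells, Sca-1 made up less, 1.98%, 2.28%, 1.39% and 2.14%. ESAM gave the same order, with 5.48%, 4.85% and 3.95% in droplets against 3.11%, 3.29% and 3.18% in cells of the 3 LARRY libraries. A single UMI of either tag is therefore read as background, and not as a cell that carries the protein.

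Cells were counted as above the droplet level where the exact one-sided 99% binomial bound of the tag's share exceeded the share in droplets, a bound that up to 1% of cells at the droplet level pass. Sca-1 was above it in 179 cells of main mouse 3 (6.69%), 96 of main mouse 4 (7.15%), 125 of replicate mouse 1 (4.03%) and 190 of native marrow (7.32%). ESAM was above it in 114 (4.26%), 83 (6.18%) and 179 cells (5.77%). By these counts Sca-1 held place 7 of 20 tags in main mouse 3 and 8 of 20 in main mouse 4. It came last of 19 tags in replicate mouse 1 and last of 4 in native marrow. ESAM held places 12, 10 and 15 in the LARRY libraries, so neither tag stood out from the panel. The bound was chosen after the counts at 95% had been seen, where Sca-1 passed in 5.35 to 9.84% and ESAM in 5.57 to 7.38% of cells. Replicate mouse 1 had the lowest share of Sca-1 cells and main mouse 3 the lowest share of ESAM cells at the 99% bound. With 1 or 2 libraries per experiment these shares were not tested against each other.

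Over all cells, Sca-1 and ESAM rose together. The partial rank correlation given the cell's tag UMIs was 0.34 in main mouse 3, 0.34 in main mouse 4 and 0.45 in replicate mouse 1 (mean 0.38, limma adjusted p = 0.00127). Of all 171 pairs of tags, 45.0% were called positive and 23.4% negative at an adjusted p below 0.05, so a positive call alone sets no pair apart. The value was 0.17 (adjusted p = 0.0396) for centred log ratios and 0.13 (adjusted p = 0.007) for the presence of each tag.

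The agreement of a tag with itself gives a scale for these values. Each UMI of a cell was put at random, with equal probability, in 1 of 2 parts. Sca-1 in 1 part and Sca-1 in the other gave 0.59, 0.54, 0.64 and 0.56 in main mouse 3, main mouse 4, replicate mouse 1 and native marrow. ESAM gave 0.46, 0.51 and 0.58. Sca-1 in 1 part and ESAM in the other gave 0.27, 0.26 and 0.40, below the value of either tag with itself in all 3 libraries.

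Few of the cells highest in the tags were the same. Both tags were above the droplet level in 18 cells of main mouse 3, 18 of main mouse 4 and 15 of replicate mouse 1. This was 10.1%, 18.8% and 12.0% of the Sca-1 cells, against 3.85%, 5.22% and 5.51% with ESAM among all other cells. As a share of the ESAM cells it was 15.8%, 21.7% and 8.38%.

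ESAM cells carried many other tags that Sca-1 cells did not. Of the cells above the droplet level for ESAM alone, 67.7 to 81.1% were also above it for CD34, a progenitor protein. For CD127, the interleukin 7 receptor of lymphoid cells, this was 44.8 to 82.9%, and for FceRIa, the IgE receptor of mast cells and basophils, 38.5 to 73.2%. Ter-119 of red cells was above it in 36.5 to 55.5%, and CD115, the receptor for the macrophage growth factor, in 38.5 to 62.2%. At most 3.7% of the cells with Sca-1 alone passed for any of these 5 tags, and at most 5.8% of the cells with neither. The median ESAM-only cell had 1014, 438 and 1116 tag UMIs in main mouse 3, main mouse 4 and replicate mouse 1, against 202, 198 and 278 in cells with neither. CD48, c-Kit and CD27 were above the droplet level in at most 2.4% of ESAM-only cells.

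Tags of unrelated lineages thus stood together in the cells highest in ESAM, and whether the ESAM counts of these cells reflect the protein was not tested. Of the ESAM cells, 64.0%, 60.2% and 76.5% were also above the droplet level for Ter-119 or FceRIa, against 7.26%, 10.4% and 7.20% of the Sca-1 cells and 6.24%, 7.00% and 8.02% of all cells. Without those cells, an alternative chosen after seeing the data, ESAM was above the droplet level in 41, 33 and 42 cells, and Sca-1 in 166, 86 and 116. Both were above it in 7, 9 and 6 cells, which was 4.22%, 10.5% and 5.17% of the Sca-1 cells, where ESAM was above it in 1.63%, 2.64% and 1.47% of all cells kept. The correlation of the 2 tags was 0.36 without them.

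The cells with Sca-1 alone carried other tags. The class II protein I-A/I-E, which presents antigen on B cells and dendritic cells, was above the droplet level in 48.4%, 43.6% and 38.2% of them, against 22.2%, 17.2% and 16.6% of cells with neither tag. CD48 was above it in 24.8%, 37.2% and 10.9%, against 56.8%, 51.5% and 60.0%. c-Kit, the stem cell factor receptor, was above it in 23.0%, 25.6% and 10% of them, against 39.6%, 34.8% and 31.0%. CD27, a receptor of the TNF family on lymphoid-primed progenitors, was above it in 50.3%, 51.3% and 45.5%, against 44.0%, 34.0% and 38.6%. In replicate mouse 1 the stem cell proteins CD150 and CD201 were above it in 27.3% and 16.4% of Sca-1-only cells, against 10.1% and 0.71% of cells with neither. In the main mice either protein was above it in at most 1.9% of Sca-1-only cells and at most 0.75% of cells with neither. CD34 went the other way in replicate mouse 1, with 0.91% of Sca-1-only cells against 1.71%. The megakaryocyte tags CD41, CD61 and CD9 were above the droplet level there in 15.5%, 20.9% and 17.3%, against 8.24%, 7.00% and 16.2%. By these shares the directions for I-A/I-E, CD48, c-Kit and CD27 were the same in all 3 libraries. The median Sca-1-only cell had 294, 346 and 534 tag UMIs, against 202, 198 and 278 in cells with neither. With 100 tag UMIs drawn from each cell, I-A/I-E, CD48 and c-Kit kept their directions. The mean of CD27 was then 6.55, 6.92 and 7.35, against 6.64, 5.31 and 7.30, so its direction differed between libraries.

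**Figure D2:**
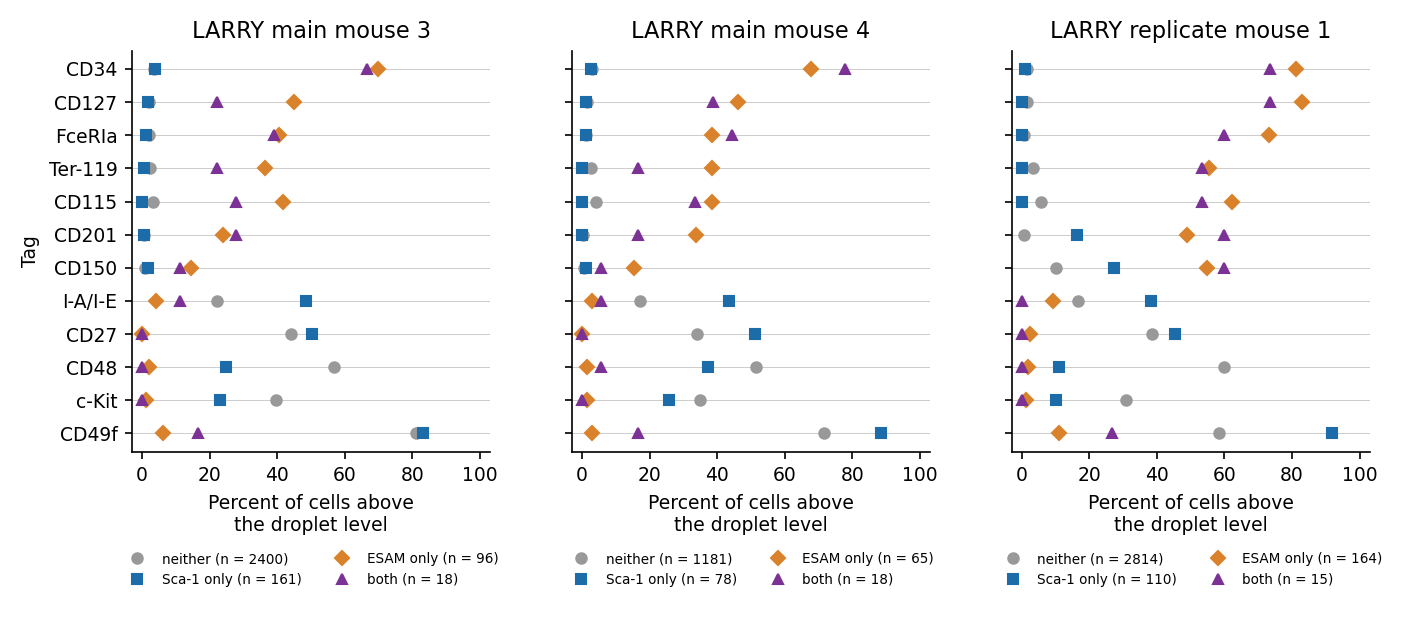
Percent of cells (horizontal) above the droplet level for each of 12 tags (vertical) in cells above it for Sca-1 only, ESAM only, both or neither, with 1 panel per LARRY library and the number of cells in each legend. ESAM-only cells lie to the right for CD34, CD127, FceRIa, Ter-119 and CD115, and near 0 for CD27, CD48 and c-Kit, where Sca-1-only cells do not.

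Over all cells, after ESAM, the tags most like Sca-1 were I-A/I-E (0.25, 0.26 and 0.35 in main mouse 3, main mouse 4 and replicate mouse 1; mean 0.29), CD201, the protein C receptor of stem cells (mean 0.28), and CD90, a T and stem cell protein (mean 0.23). The tags most like ESAM were CD41, an integrin of megakaryocytes (0.35, 0.43 and 0.37; mean 0.38), Sca-1, CD150 (mean 0.38) and CD201 (mean 0.37). CD34, CD127, Ter-119 and FceRIa came next for ESAM, with means of 0.36, 0.33, 0.30 and 0.30. All of these were called.

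CD48 was the tag least like either protein. Its correlation with Sca-1 was -0.26, -0.23 and -0.42 in the LARRY libraries and -0.15 in native marrow (mean -0.27, limma adjusted p = 0.0032), and with ESAM -0.35, -0.36 and -0.49 (mean -0.40, adjusted p = 0.00128). The next lowest was c-Kit for Sca-1 (mean -0.11, adjusted p = 0.0133) and CD27 for ESAM (mean -0.12, adjusted p = 0.0253). Native marrow, with its 4 tags, gave Sca-1 correlations of 0.23 with CD150 and -0.06 with c-Kit, the signs seen in the LARRY libraries. CD48 made up 15.9%, 16.2% and 20.7% of tag UMIs in LARRY cells and 57.1% in native cells. All these correlations are given total tag UMIs, to which CD48 itself adds. The effect of this on its values was not tested.

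**Figure D3:**
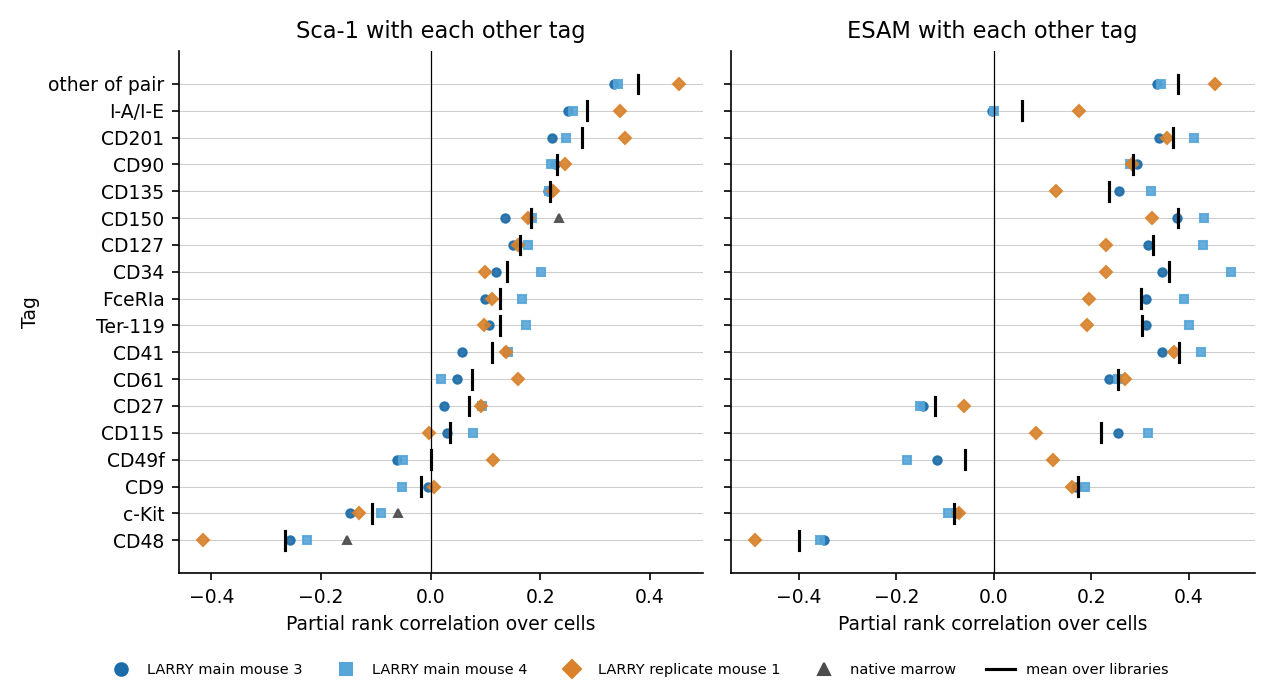
Partial rank correlation over cells, given total tag UMIs (horizontal), of Sca-1 (left) and ESAM (right) with each other tag (vertical); points are libraries and black bars the means. CD48 is lowest in both panels, and I-A/I-E has a mean of 0.29 with Sca-1 and 0.06 with ESAM.

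The methylation calls were then set against the tags. For each amplicon and tag, the partial correlation between the rank of the tag's UMIs and the call was computed within each library, given the cell's reads and tag UMIs, and tested over libraries with limma. Of the 663 amplicons, 589 had a read in 2 to 98% of cells on average and were tested. Sca-1 was called at 164 of them (27.8%), 138 with a positive and 26 with a negative correlation. ESAM was called at 162 (27.5%), 129 positive and 33 negative. Over all 11191 pairs of an amplicon and 1 of 19 tags, 21.8% were called, 15.6% positive and 6.17% negative. By the number called, Sca-1 and ESAM held places 6 and 7 of the 19 tags.

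Most correlations were weak. The median over all 589 amplicons was 0.0062 for Sca-1 and 0.0081 for ESAM, against 0.0087 over all pairs. A called correlation of at least 0.1 was found at 71 amplicons for Sca-1 and 85 for ESAM, and one of -0.1 or below at 5 for each. Over the 138 positive Sca-1 amplicons the median was 0.099 in main mouse 3, 0.092 in main mouse 4, 0.16 in replicate mouse 1 and 0.066 in native marrow. Without main mouse 3 the counts called were 78 for Sca-1 and 75 for ESAM, and without main mouse 4 they were 97 and 106. With the ranks of Ter-119 and FceRIa as further covariates they were 138 and 115, and without the cells above the droplet level for these 2 tags 149 and 140.

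The share of amplicons called positive was highest where few cells had the amplicon methylated. Of the 88 amplicons with a read in under 25% of cells, 51 were called positive for Sca-1 and 56 for ESAM, and 0 were called negative for either. Of the 86 amplicons at 25 to 50%, 41 were called positive and 4 negative for Sca-1, and 42 and 4 for ESAM. Of the 146 at 50 to 75%, these were 26 and 11 for Sca-1 and 20 and 12 for ESAM. Of the 269 amplicons with a read in over 75% of cells, Sca-1 was called positive at 20 and negative at 11, and ESAM at 11 and 17. Calls by range were not counted for other tags. The median share at positive amplicons was 33.8% for Sca-1 and 30.5% for ESAM, within 23.1% (CD201) to 80.8% (CD49f) over the 19 tags. It was 31.0% for CD150, 31.4% for CD41, 31.6% for CD90 and 32.1% for Ter-119, so low shares were not particular to Sca-1 and ESAM.

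AMPL371197 had the highest Sca-1 correlation. It was 0.26 in main mouse 3, 0.25 in main mouse 4, 0.32 in replicate mouse 1 and 0.16 in native marrow. The mean was 0.25 (moderated SE 0.024 on the Fisher z scale, limma adjusted p = 0.00054). The same amplicon had 0.19, 0.17 and 0.34 with ESAM (mean 0.24, adjusted p = 0.00267). To show this in cells, each cell was thinned to 100 tag UMIs and sorted by its UMIs of the tag. The class with 3 or more held 15.7 to 27.5% of cells for Sca-1 and 22.3 to 32.2% for ESAM. Above the droplet level were only 4.03 to 7.32% and 4.26 to 6.18%. Most cells of that class were thus not above the droplet level. From cells without a Sca-1 UMI to cells with 3 or more, AMPL371197 was methylated in 20.3% and 49.0% of main mouse 3, 19.5% and 46.1% of main mouse 4, 32.2% and 74.9% of replicate mouse 1, and 9.74% and 24.3% of native marrow. By ESAM the same shares were 23.6% and 45.2%, 28.2% and 39.6%, and 30.5% and 69.0% in the LARRY libraries. Replicate mouse 1 stood highest in each class for this amplicon and native marrow lowest.

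The next Sca-1 amplicons were AMPL371741 (mean 0.24), AMPL366028 (mean 0.22) and AMPL376650 (mean 0.21). AMPL371741 was methylated in 14.7% and 39.2% of cells of main mouse 3 without and with 3 or more Sca-1 UMIs, 12.9% and 38.2% of main mouse 4, 27.9% and 66.3% of replicate mouse 1, and 13.0% and 32.7% of native marrow. AMPL376650 was methylated in 6.09% and 18.9%, 4.29% and 24.1%, 11.5% and 37.9%, and 16.2% and 43.1% in the same order. At AMPL376650 native marrow stood highest in both classes, unlike at AMPL371197. AMPL366028 had 0.22, 0.22 and 0.34 in the LARRY libraries but 0.078 in native marrow, where 7.71% of cells had it methylated against 26.0 to 30.4%.

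The 4 amplicons with the highest ESAM correlation were AMPL355412 (0.19, 0.19 and 0.33; mean 0.24), AMPL371197, AMPL366060 (0.23, 0.18 and 0.29; mean 0.24) and AMPL365990 (0.16, 0.19 and 0.34; mean 0.23). AMPL355412 was methylated in 16.4% and 38.2% of cells of main mouse 3 without and with 3 or more ESAM UMIs, 16.1% and 32.9% of main mouse 4, and 14.9% and 52.4% of replicate mouse 1. All 4 were called for Sca-1 too, with means of 0.21 at AMPL355412, 0.19 at AMPL366060 and 0.17 at AMPL365990. In native marrow Sca-1 had 0.12, 0.046 and 0.014 there.

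The lowest Sca-1 correlation was at AMPL377174. Its correlation was -0.24 in main mouse 3, -0.21 in main mouse 4, -0.24 in replicate mouse 1 and -0.24 in native marrow (mean -0.23, adjusted p = 9.84e-05). It was methylated in 90.3% of cells without a Sca-1 UMI and 71.4% of cells with 3 or more in main mouse 3, in 89.8% and 75.9% in main mouse 4, in 87.2% and 64.6% in replicate mouse 1 and in 96.1% and 78.1% in native marrow. All 4 libraries lay close together at this amplicon. The other negative Sca-1 amplicons were AMPL388335 (mean -0.14), AMPL376402 (mean -0.14) and AMPL371420 (mean -0.12, adjusted p = 0.00266, but 0.0821 for centred log ratios). AMPL376402 had a read in every native cell, so its value rests on the 3 LARRY libraries.

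At the lowest ESAM amplicon, AMPL371420, the correlation was -0.12, -0.084 and -0.21 (mean -0.14, adjusted p = 0.00698). The next were AMPL365894 with a mean of -0.13, AMPL388788 with -0.12 and AMPL366088 with -0.11. AMPL371420 is the only 1 of the named negative amplicons that the rule chose for both tags. Given the ranks of c-Kit, CD150 and CD48, 1 of 130 ESAM calls was negative in place of 33 of 162, and none of these 4 amplicons was called: ESAM had -0.033 at AMPL371420, -0.018 at AMPL365894, 0.012 at AMPL388788 and 0.00076 at AMPL366088. Without main mouse 3, AMPL371420 and AMPL366088 had adjusted p of 0.0544 and 0.067. Sca-1 kept 158 of its 164 calls given the 3 tags, out of 214, and ESAM kept 104 of its 162. The highest positive ESAM correlations were also lower given the 3 tags, though still called. They were 0.10 at AMPL355412, 0.12 at AMPL371197, 0.12 at AMPL366060 and 0.099 at AMPL365990, against 0.24, 0.24, 0.24 and 0.23.

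**Figure D4:**
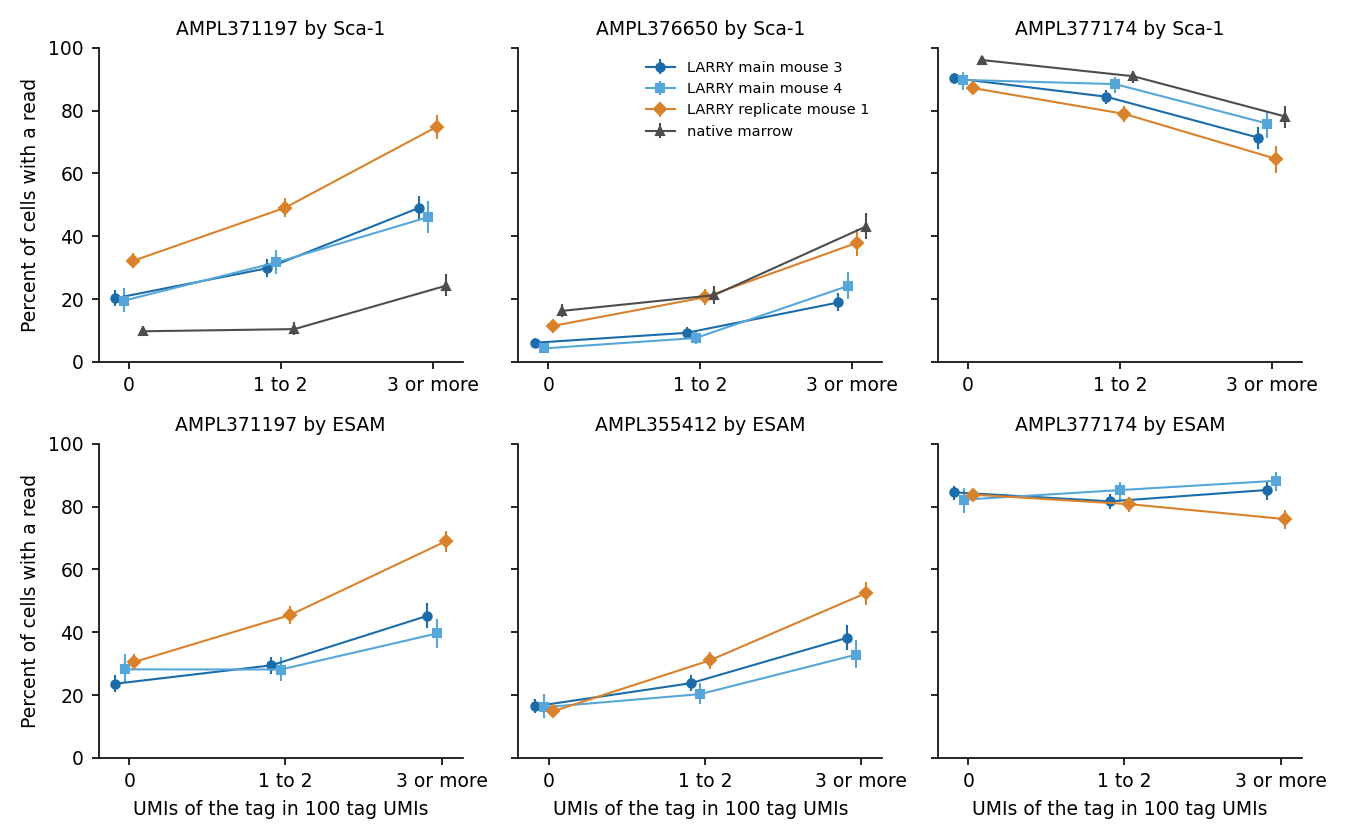
Percent of cells with a read (vertical) at the named amplicons, by UMIs of Sca-1 (top) or ESAM (bottom) after thinning each cell to 100 tag UMIs; lines are libraries and bars 95% Wilson intervals, which cover counting error only. AMPL371197, AMPL376650 and AMPL355412 are higher in cells with 3 or more UMIs than in cells with 0 in every library shown, and AMPL377174 is lower by Sca-1 in all 4 while its ESAM lines stay between 76.0% and 88.2%. Most cells with 3 or more UMIs were not above the droplet level.

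The 2 tags had 92 positive calls in common, 66.7% of those of Sca-1 and 71.3% of those of ESAM, where 23.4% of all 589 amplicons were positive for Sca-1 and 21.9% for ESAM. They had 6 negative calls in common, 23.1% and 18.2%, where 4.41% and 5.6% of all amplicons were negative. At 0 amplicons were they called in opposite directions. Both correlations come from the same cells, so these are not independent.

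The difference between the tags was tested on its own, as Sca-1 minus ESAM within each of the 3 LARRY libraries. It was called at 104 of 589 amplicons (17.7%), at 67 with Sca-1 higher and at 37 with ESAM higher. For centred log ratios the split was 76 and 72. The largest difference was at AMPL377174, -0.24, -0.24 and -0.16 in main mouse 3, main mouse 4 and replicate mouse 1 (mean -0.21, adjusted p = 6.84e-08), where ESAM had -0.0014, 0.035 and -0.092. AMPL371446 followed with ESAM higher (mean -0.12, adjusted p = 6.26e-05). Without and with 3 or more Sca-1 UMIs, it was methylated in 30.7% and 25.7% of cells of main mouse 3. The shares were 36.9% and 27.4% in main mouse 4, and 40.5% and 29.8% in replicate mouse 1. In native marrow, which was not in this test, they were 45.0% and 29.7%. ESAM had a mean correlation of 0.023 at this amplicon.

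Sca-1 was higher at AMPL365895 (0.18, 0.16 and 0.11; mean 0.15, adjusted p = 4.19e-06) and at AMPL388523 (mean 0.14, adjusted p = 4.19e-06). AMPL365895 was methylated in 71.3% and 87.7% of main mouse 3, 72.1% and 89.7% of main mouse 4, 67.2% and 89.5% of replicate mouse 1 and 76.9% and 83.9% of native cells without and with 3 or more Sca-1 UMIs. By ESAM it was methylated in 78.1% and 79.6%, 81.6% and 80.3%, and 70.7% and 81.9%. The shares by ESAM lay closer together in the main mice than in replicate mouse 1, and that contrast between libraries was not tested. The count of differences rests on single libraries: limma called 0 without main mouse 3, with 78 amplicons at an unadjusted p under 0.05, and 0 without replicate mouse 1, with 143. No other tool was run.

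**Figure D5:**
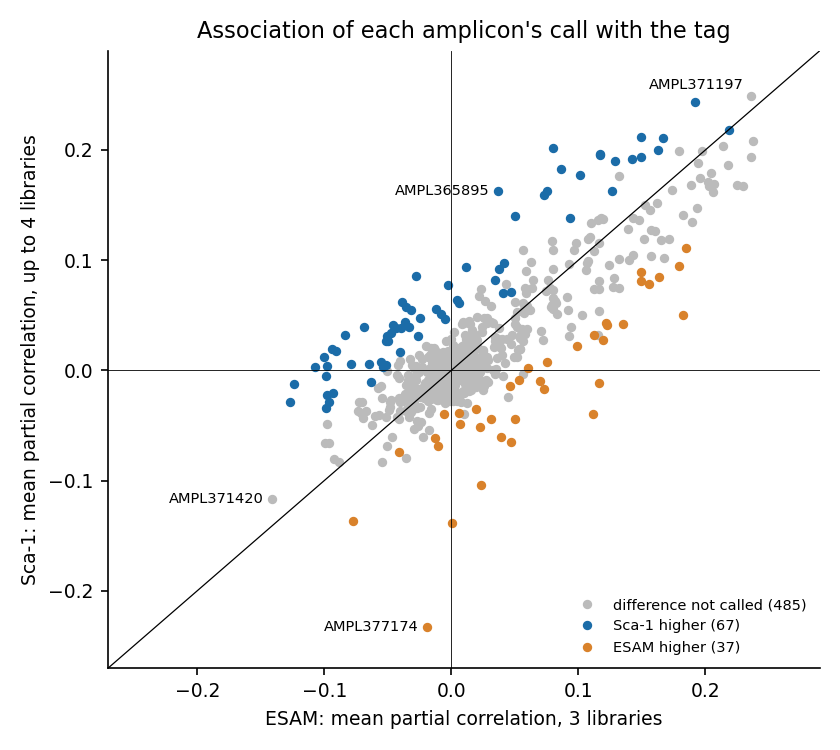
Mean partial correlation of each of 589 amplicons with ESAM (horizontal, 3 libraries) and with Sca-1 (vertical, up to 4 libraries); colours mark the amplicons where the difference over the 3 LARRY libraries was called. The difference was called with Sca-1 higher at 67 points and with ESAM higher at 37, and AMPL377174 is the lowest point; a point's place against the diagonal can differ from its call, since the Sca-1 means include native marrow.

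Native marrow allowed a look in a library that was not used for the call. The 3 LARRY libraries alone called 136 amplicons positive and 24 negative for Sca-1 among the 588 that native marrow can test. Of these, 122 (89.7%) had a positive and 22 (91.7%) a negative correlation in native marrow, where 59.4% of all amplicons were positive and 40.6% negative. The median in native marrow was 0.065 at the positive and -0.043 at the negative amplicons, against 0.12 and -0.07 in the LARRY libraries. For c-Kit, CD150 and CD48 the shares of the same sign were 77.4 to 98.1%, so the carry-over was not particular to Sca-1. Over amplicons, the Sca-1 correlations of 2 libraries had a Pearson r of 0.86 between the main mice, 0.81 to 0.82 between main and replicate mice and 0.63 to 0.71 with native marrow; amplicons are not independent and share the cells of a library.

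Over part of the panel, cells with more Sca-1 also had slightly more amplicons methylated. The mean share of the 399 intermediate amplicons (read in 25 to 90% of cells on average) was 60.4% (SD 10.6 over 1051 cells) without a Sca-1 UMI and 63.9% (SD 12.0 over 661) with 3 or more in main mouse 3. It was 62.2% and 65.5% in main mouse 4, 67.2% and 70.8% in replicate mouse 1 and 69.4% and 70.4% in native marrow. By ESAM it was 61.4% and 64.6%, 63.9% and 64.1%, and 67.7% and 70.4% in the LARRY libraries. In cells above the droplet level for Sca-1 alone it was 62.5%, 65.8% and 70.2% there, against 62.0%, 63.2% and 68.3% in cells with neither tag. These steps are smaller than the spread between cells of a class, and no test over libraries was made. Median reads moved with them in some libraries, from 35036 to 43913 by Sca-1 in main mouse 4 and from 45908 to 49692 by ESAM in main mouse 3, and their part in these means was not tested.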

How the data were processed

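The authors deposited, per the file headers, counts of reads per cell and amplicon and counts of UMIs per cell and tag, not normalized. Libraries were made by scTAM-seq per the labels' protocols, and the submitters' processing notes name build mm10. Aligner, cell calling and cell filters: not given in the sources used here. Doublets were not called. The 663 amplicons are named by panel identifiers only. A tag's ranked UMIs were correlated with the call (1 or more reads) in each library given log10 reads and log10 tag UMIs, and tag pairs given log10 tag UMIs. Fisher z values were fitted over libraries with limma 3.58.1 (R 4.3.3), with Benjamini-Hochberg adjustment over all pairs (or amplicons, for the difference) at 0.05. Native marrow entered for its own tags. The association was tested on simulated data before use. Simulated amplicons without an effect were given no added spread between libraries, so this could not show how often false calls arise in these data.

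The members, tests and lists were chosen with earlier results of these data known. The rule named the 4 highest and 4 lowest called amplicons per tag with 1 sign in every library, 2 per direction for the difference, and the 4 highest and 2 lowest tags. Droplet levels and classes of cells were added after the data were seen. Alternatives changed the read minimum, tag scale, covariates, UMI minimum, amplicon filter and libraries. Each library holds 1 mouse, and intervals (95%, Wilson) cover counting error only. Other libraries enter no comparison.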

Additional observations from a re-analysis of the deposited data

Results flagged for a closer look

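At 4 pairs of a tag and a named amplicon, all libraries of 1 experiment had the opposite sign to all of another, and none of these differences was tested. Sca-1 had 0.0328 at AMPL365894 in native marrow against a mean of -0.0486 in the main and -0.0522 in the replicate LARRY libraries. At AMPL388788 Sca-1 had 0.0288 in native marrow against -0.0197 and -0.0376, and at AMPL366088 it had 0.0139 in native marrow against -0.0303 in replicate mouse 1. ESAM had -0.076 at AMPL388335 in replicate mouse 1 and a mean of 0.0387 in the main mice. None of these 4 pairs was called over the libraries.

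The Sca-1 tag was also read in 3 LARRY libraries outside the comparisons, with other panels. It was above the droplet level in 3.41% of 3902 cells of the mature myeloid marrow and blood library, where 6 isotype control antibodies gave 0.154 to 1.1%. It was above it in 4.09% of 5359 cells of the mature marrow and spleen library, and in 55.4% of 2933 lung endothelial cells, against the 1% that the bound lets pass.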

How the results depend on the processing

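The counts of called amplicons kept within 1.5 times of their main value except as follows. Scoring a tag as present or absent gave 97 calls for ESAM and 26 for the difference, and keeping cells with 1 or more tag UMIs gave 59 for the difference. Leaving out 1 library at a time gave 78 to 177 calls for Sca-1, 75 to 186 for ESAM and 0 to 94 for the difference, and fewer libraries were then tested. The correlation of the 2 tags was called under every alternative run, from 0.134 for presence to 0.564 without covariates. The mean share of cells with a UMI, 74.6% for Sca-1 and 83.5% for ESAM, was 57.5% and 64.7% after thinning to 100 tag UMIs and 52.0% and 64.9% in cells with 1 or more tag UMIs. Given c-Kit, CD150 and CD48, ESAM turned to 0.000758 at AMPL366088 and 0.0121 at AMPL388788; the cause was not tested. Of the other results at named amplicons and alternatives, 382 kept direction and call and 14 lost the call. No paired analysis was possible because no comparison between groups was tested, and native marrow and the replicate experiment have 1 library each. Tag depth limits the levels: the median cell had 186 to 301 tag UMIs and 1 to 3 of either tag.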

Other observations

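In the lung endothelial library, where 2933 of 6362 cells had tags, Sca-1 was the main tag. The median cell held 163 Sca-1 UMIs, against 43 of CD31, an adhesion protein of endothelium, and 7 of podoplanin, a protein of lymphatic endothelium. Sca-1 made up 65.9% of all tag UMIs in these cells and 64.2% in empty droplets. The T cell tag CD3 had a UMI in 0.0682% of them. In the marrow and spleen library, the median cell held 16 Sca-1 UMIs, 32 of Ly-6C and 10 of CD3, and Sca-1 made up 5.77% of tag UMIs in cells and 8.19% in droplets. These panels differ from those of the progenitor libraries, so the shares cannot be compared across them.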
